A study of Mus musculus with 4 samples.

Results

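The proteasome is the barrel-shaped protease that degrades most short-lived and damaged proteins of the cell once they carry a chain of ubiquitin. Its 20S core is built from rings of alpha subunits, which form the gate, and rings of beta subunits, some of which carry the proteolytic sites. The 19S regulator sits on the end of the core, where its ATPases unfold the substrate and its non-ATPase subunits bind ubiquitin chains and remove them. Other activators can take the place of the 19S regulator, and dedicated chaperones put the core together. The genes lie scattered over the chromosomes, but their transcription is coordinated, in part by Nrf1 (gene Nfe2l1), a factor that binds antioxidant response elements when the proteasome cannot keep up with its load.

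In order to describe how open the promoters of these genes are in old and young cells, ATAC-seq values were taken from mouse mesenchymal stem cells (MSCs). A transposase inserts sequencing adapters into open DNA in this assay, so that a higher value at a site means more accessible chromatin. There were 2 samples of old mice, 18 to 22 months of age, and 2 samples of young mice, 3 to 5 months of age, and the cells of both ages were grown at 2% O2. The labels give neither strain nor sex and do not say whether replicates came from separate animals or cultures, so the p-values measure the spread between these samples only. Of 117282 peaks on mm10, 16205 had a protein-coding transcript starting inside them or at most 1 kb away and are called promoter peaks. Proteasome promoter peaks are those on autosomes at genes named Psma, Psmb, Psmc, Psmd, Psme or Psmg plus a number, without the inducible subunits Psmb8 and Psmb9. They numbered 43, at 42 of the 44 genes that the rule covers, and Psma6 had 2 of them. The genes without one were Psma8, a testis form of an alpha subunit, and Psmb11, a beta subunit of the thymic cortex. The 43 peaks comprised 8 of 20S alpha subunits, 8 of 20S beta subunits, 6 of 19S ATPases, 13 of 19S non-ATPases, 4 of activators and 4 of assembly chaperones. Roles follow the gene symbol only, so chaperones of the 19S base with a Psmd symbol are counted among the non-ATPases and the 19S regulator.

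The samples differed in depth, with between 12527509 and 18493628 counts in peaks, and old replicate 1 was the shallowest. The deposited values already carried a scale per sample, with steps of 0.307 to 0.354 per count. They were divided by relative log expression (RLE) factors. Each factor was the median, over peaks, of a sample's value relative to the geometric mean at that peak. The factors ran from 0.813 in old replicate 1 to 1.15 in young replicate 2. This scaling removes a shift shared by most peaks. As deposited, 74.6% of all peaks had a lower old mean, with a median difference of -0.27, and the cause of that shift was not tested. RLE-scaled values, and differences of log2(RLE-scaled value + 1), are given below unless stated otherwise. A deposited value of 1 stands for about 3 counts, and the proteasome peaks held from 53 to 1127 counts per sample. Old replicate 2 stood apart on chromosome 11. Its difference from the mean of the young samples on the log2 scale was taken at each peak. The median on chromosome 11 lay 0.17 above the median over all autosomal peaks, against -0.10 to 0.074 for the other autosomes. For old replicate 1 this shift on chromosome 11 was 0.025. The labelled cell type was checked on its markers. All 10 mesenchymal markers had a promoter peak, Pdgfra, Ly6a, Prrx1 and Col1a1 among them, with summed values of 3646 and 4430 in old samples and 3526 and 3634 in young samples. Of the blood markers, Spi1 and Csf1r had one, with a sum of 88.2 to 127, and Ptprc, Cd3e and Itgam had none. Of 4 endothelial markers, Pecam1 and Kdr had one (37.8 to 50.3). The sum overlapped between the ages for blood markers, while the endothelial sum was 49.5 and 50.3 in old samples and 37.8 and 42.1 in young samples, without a peak at Cdh5 or Tie1. The mesenchymal sum of old replicate 1 (3646) was close to that of young replicate 2 (3634). At some but not all of the 10 mesenchymal markers the groups overlapped, as at Thy1 (112 and 126 in old samples, 115 and 124 in young samples). The part of the mesenchymal and endothelial sums in the results below was not tested.

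The sequence upstream of these genes was read first, because it shows what the accessible DNA holds. RefSeq promoter windows on GRCm38.p6, from 250 bases before to 50 after the start, were found for 35 of the 42 genes (38 windows), and they were set beside 21263 windows of 17492 genes. Each motif was searched on both strands. The core of the antioxidant response element, TGACNNNGC, was found at 6 proteasome genes (Psmb5, Psmb6, Psmc6, Psmd9, Psmd12 and Psme4), which is 17.1% of the 35, against 14.8% of all genes. The stretches that hold it are shown for 5 of them, 5′ to 3′ on the strand of the gene given in brackets, as the candidate sites of the known regulator of this gene set. Capitals mark that core, the box CCAAT bound by NF-Y, the box GGGCGG bound by Sp factors, and the core CCGGAAG bound by ETS factors, each on either strand. In Psmd9 the TGACNNNGC match and a reverse GGGCGG match overlap and share 1 run of capitals.

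Psmb5 chr14:54618023-54618172 (-): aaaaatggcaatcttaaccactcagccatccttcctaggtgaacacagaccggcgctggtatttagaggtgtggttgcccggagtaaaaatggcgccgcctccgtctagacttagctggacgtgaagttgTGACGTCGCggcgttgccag
Psmb6 chr11:70525327-70525356 (+): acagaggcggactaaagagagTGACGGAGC
Psmc6 chr14:45329574-45329723 (+): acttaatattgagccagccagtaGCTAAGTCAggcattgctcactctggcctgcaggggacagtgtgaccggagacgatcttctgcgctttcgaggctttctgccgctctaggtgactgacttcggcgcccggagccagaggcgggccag
Psmd9 chr5:123228040-123228189 (+): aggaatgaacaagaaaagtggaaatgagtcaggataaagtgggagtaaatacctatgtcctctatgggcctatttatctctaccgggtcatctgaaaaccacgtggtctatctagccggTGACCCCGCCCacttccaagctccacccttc
Psmd12 chr11:107479278-107479427 (+): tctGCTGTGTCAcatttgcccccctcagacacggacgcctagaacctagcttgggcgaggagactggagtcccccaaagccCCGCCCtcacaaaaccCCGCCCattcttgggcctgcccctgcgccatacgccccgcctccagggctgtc

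These genes span the proteolytic beta subunits, the ATPases and the non-ATPases, and in Psmd12 and Psmc6 the match lies on the opposite strand. For Psme4 the match was not printed, since it crosses the start. The share with TGACNNNGC was close to that of all genes, and a match of these letters is no evidence of binding.

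Of the 8 motifs searched, the one whose share differed most from all genes was CCGGAAG, the ETS core, at 14 of 35 genes (40.0% against 12.9%). Proteasome windows were also richer in CpG, with a median observed-to-expected CpG ratio of 0.772 against 0.567, and a median GC content of 59.0% against 56.3%. Among windows with a CpG ratio of at least 0.6, CCGGAAG was in 14 of 29 proteasome windows (48.3%) against 19.7% of all such windows. By role, it was found in 6 of 11 non-ATPase windows, 4 of 6 ATPase windows, 2 of 5 activator windows and 2 of 3 chaperone windows. It was in 1 of 8 alpha and 0 of 5 beta windows. These are windows and not genes, as Psmc2 gave 2 of the 4 ATPase windows with it. Psme2, which lacks it, gave 2 of the 5 activator windows. No window was found for the beta genes Psmb1, Psmb2 and Psmb7. Upstream sites outside annotated exons are shown with their flanks, with CCGGAAG or its reverse complement in capitals. They were chosen after the shares had been seen.

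Psma6 peak 2 chr12:55398678-55398714 (+): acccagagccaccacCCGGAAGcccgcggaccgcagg
Psmc6 chr14:45329709-45329745 (+): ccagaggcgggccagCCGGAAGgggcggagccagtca
Psmd4 chr3:95042718-95042754 (-): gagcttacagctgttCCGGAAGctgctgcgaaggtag
Psmd11 chr11:80428589-80428614 (+): aacgcgagggcgggtCTTCCGGgtgt
Psme3 chr11:101316091-101316127 (+): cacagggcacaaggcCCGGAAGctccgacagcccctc
Psmg1 chr16:95991008-95991044 (-): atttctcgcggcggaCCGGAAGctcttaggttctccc

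Of these 6 sites, the one at Psmd11 was the only one with the core on the opposite strand. Of the other motifs, GGGCGG was found at 21 of 35 genes (60.0% against 49.2%), the box CCAAT at 11 (31.4% against 42.3%), and the E-box CACGTG at 4 (11.4% against 8.91%). AAGATGGC, a YY1 motif, and GCGCATGC, a motif of nuclear respiratory factor, were at 3 genes each (8.57%, against 3.57% and 3.94%). TATAAA was at 3 genes as well, against 14.8% of all genes. CCAAT was found in 5 of 8 alpha windows and 2 of 11 non-ATPase windows, whereas GGGCGG was found in 4 of 8 and 9 of 11. Upstream sequence is also shown for the most accessible promoters per kb among the alpha subunits, the activators and the chaperones, with the same motifs in capitals as in the first set.

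Psma2 chr13:14613166-14613239 (+): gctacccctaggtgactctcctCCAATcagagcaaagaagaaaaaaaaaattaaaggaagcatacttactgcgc
Psme2 chr14:55591114-55591263 (-): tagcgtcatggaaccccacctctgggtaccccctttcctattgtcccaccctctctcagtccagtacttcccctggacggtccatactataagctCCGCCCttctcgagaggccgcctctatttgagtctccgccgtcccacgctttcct
Psmg4 chr13:34162814-34162963 (+): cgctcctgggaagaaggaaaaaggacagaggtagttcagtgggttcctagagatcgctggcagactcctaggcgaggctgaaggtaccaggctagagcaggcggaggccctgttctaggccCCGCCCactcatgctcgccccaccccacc

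Psma2 held a CCAAT in this stretch, and Psme2 and Psmg4 each held a GGGCGG on the opposite strand. None of the 3 had a TGACNNNGC in its window.

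Each of the 43 peaks contained the start site itself. The median peak was 2400 bp wide (range 1300 to 6600), against 2500 bp for all promoter peaks, and reached 853 bp upstream and 1183 bp downstream of the start. The centre lay downstream of the start in 28 of 43 peaks. The widest were those of Psmb3, a beta subunit, and Psma7, an alpha subunit (6300 bp). The plot of peak extents shows that Psmb3 owed its width to the upstream side, where the peak ran 5798 bp, past the start of Pcgf2.

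**Figure D1:**
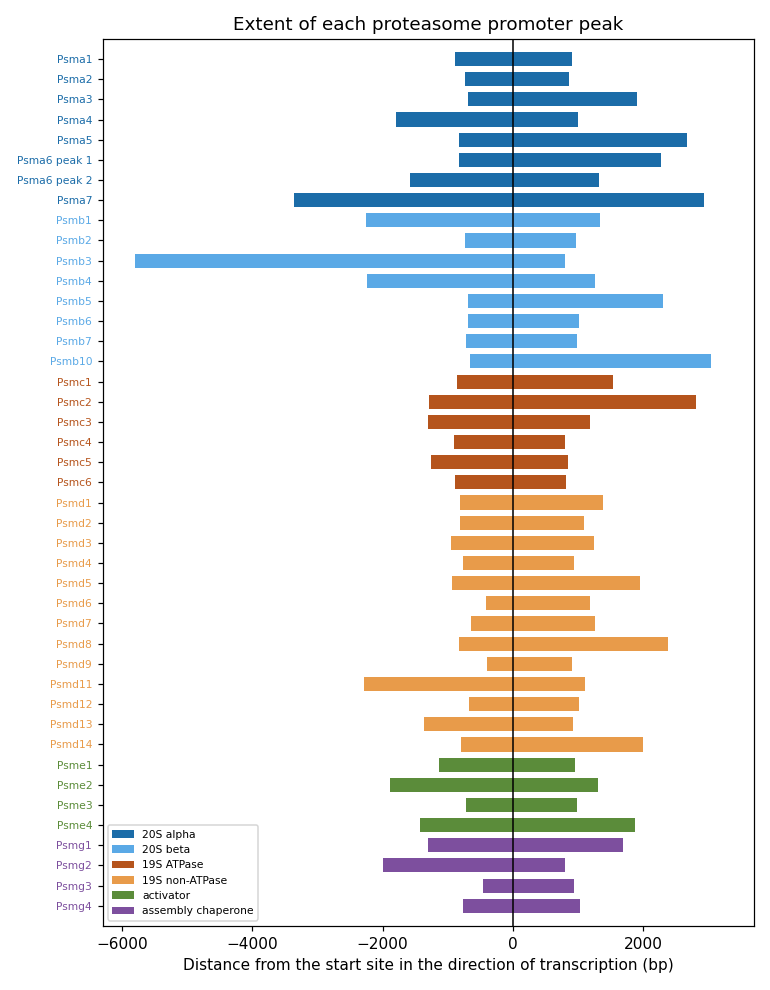
Extent of the 43 proteasome promoter peaks relative to the annotated start (0, in bp, downstream to the right), 1 bar per peak, coloured by role. Most peaks reached somewhat farther into the gene than upstream (median 1183 bp against 853 bp), and Psmb3 and Psma7 were the widest.

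Several of these promoters serve more than 1 gene. The start of at least 1 other protein-coding gene lay inside, or at most 1 kb from, 11 of 43 peaks (25.6%). The same held for 10.1% of all promoter peaks, 35.5% of 76 ribosomal protein promoter peaks and 40.0% of 95 oxidative phosphorylation promoter peaks. In 10 of the 11 the neighbour was transcribed in the opposite direction. Short distances between starts were seen for Psmc2 and Dnajc2 (32 bp), Psmc5 and Ftsj3 (75 bp), Psma2 and Mrpl32 (75 bp), Psma7 and Ss18l1 (76 bp), and Psmd13 and Sirt3 (99 bp). Psmb1 shared its peak with Tbp, the TATA-binding protein, 137 bp away, and Psme2 with Rnf31, 595 bp away. Accessibility in such a peak cannot be assigned to either gene. The 11 shared peaks and the 32 others had a median difference between old and young MSCs of -0.033 and -0.12.

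Next, accessibility was compared between promoters. Because the values are not divided by peak width, levels of different peaks are compared as density, the mean RLE-scaled value per kb of peak. The median proteasome promoter had a density of 39.3 per kb, against 27.1 per kb for all promoter peaks, a ratio of 1.45. Ribosomal protein promoters had a median density of 30.7 per kb and oxidative phosphorylation promoters 37.5 per kb. The ratio to all promoter peaks was 1.36 and 1.57 in old replicates 1 and 2, and 1.37 and 1.56 in young replicates 1 and 2, so it varied within each age as much as between ages. Of the 43 peaks, 36 lay above the median promoter, 19 above the upper quartile of promoter peaks and 0 below the lower quartile. Without division by width, the ratio was 1.12.

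**Figure D2:**
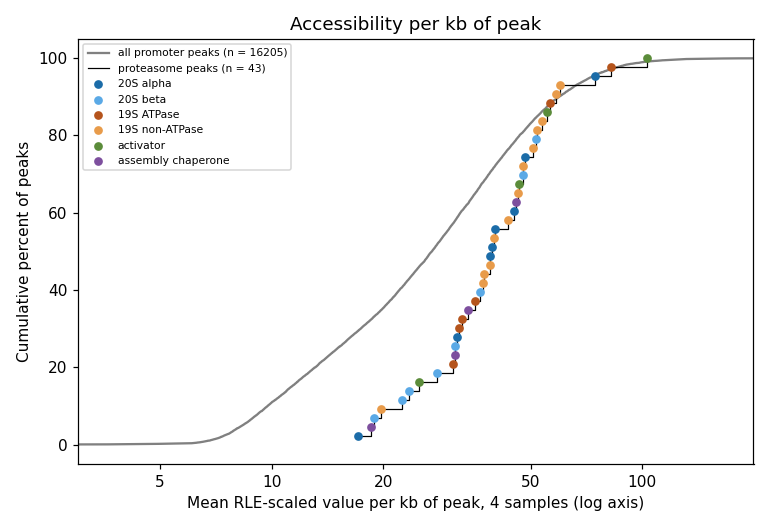
Cumulative percent of peaks against mean RLE-scaled value per kb over 4 samples (log axis) for 43 proteasome peaks (points coloured by role) and all 16205 promoter peaks (grey line). The proteasome peaks start at 17.1 per kb, have a median of 39.3 against 27.1, and meet the grey line in the upper part of the range.

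Density differed more between subunits than between samples. The highest density was 5.51 to 6.95 times the lowest within a sample, and the rank of the 43 peaks correlated between samples with Spearman's rho between 0.834 and 0.955, a description over peaks that share libraries. The median was 50.9 per kb for activators, 46.2 for non-ATPases, 39.7 for alpha subunits, 34.1 for ATPases, 32.6 for chaperones and 29.6 for beta subunits, and the ranges of the roles overlapped.

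Psme2, a subunit of the interferon-inducible activator of the core, had the densest peak, with 103 ± 4.59 per kb (SD over 4 samples), above 99.1% of promoter peaks. Its values were 309 and 344 in old replicates 1 and 2, and 336 and 332 in young replicates 1 and 2. The young samples lay within the range of the old samples. At the other end was the upstream peak of Psma6, an alpha subunit, at 17.1 ± 1.70 per kb, while its second peak reached 48.4 per kb. Among the beta subunits, Psmb1, a structural subunit, was highest (51.7 ± 1.86) and Psmb5, which carries the chymotrypsin-like site, lowest (18.9 ± 1.34). Among the ATPases, Psmc6 (82.6 ± 10.8) and Psmc3 (30.9 ± 1.02) were the extremes. Among the non-ATPases these were Psmd13, a subunit of the 19S lid (60.1 ± 8.72), and Psmd9, a chaperone of the 19S base that carries a subunit name (19.8 ± 2.51). Psmg4 (45.7 ± 7.42) and Psmg3 (18.5 ± 1.48), whose products pair with each other to assemble the alpha ring, were the densest and the least dense of the chaperones.

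To determine whether these promoters differed with age, each peak was tested with limma on log2(RLE-scaled value + 1), with Benjamini-Hochberg adjustment over all 117282 peaks. None of the 43 passed an adjusted p of 0.01, and none passed 0.05. The background was low too, as 66 of all peaks (0.0563%) and 6 of all promoter peaks (0.037%) passed at 0.01. At an unadjusted limma p under 0.05 stood 2 proteasome peaks, Psme3 and Psmc6 (4.65%, against 9.65% of promoter peaks). The smallest p that exact permutation of 2 against 2 samples allows is 0.33. Standard errors of single peaks ran up to 0.24 with a median of 0.18, so that a difference of the size seen at most of these peaks was not detectable at this depth and number of samples.

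The differences were small. They ran from -0.33 for Psmc6 to 0.55 for Psme3, and 34 of 43 were under 0.25 in size. In 31 peaks the old mean was lower and in 12 it was higher (72.1% lower, against 54.7% of promoter peaks and 49.9% of all peaks). The scaling itself brings the share over all peaks close to an even split. As deposited, the shares lower were 95.3% of proteasome peaks, 86.8% of promoter peaks and 74.6% of all peaks. The median was -0.11, against -0.028 for all promoter peaks, 0.027 for ribosomal protein promoters and -0.032 for oxidative phosphorylation promoters. Both old samples lay below both young samples in 16 peaks (37.2%, against a background of 25.7% of promoter peaks). Both lay above in 5 (11.6%, against 15.7%), and the groups overlapped in 22. The share below was 19.7% for ribosomal protein and 21.1% for oxidative phosphorylation promoters. It was 36.1% for promoters of other genes that serve or feed the proteasome, listed further below, and so was not particular to the subunit genes. A lower value may come from fewer cells with an open promoter or from less opening in each cell, which cannot be told apart here.

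**Figure D3:**
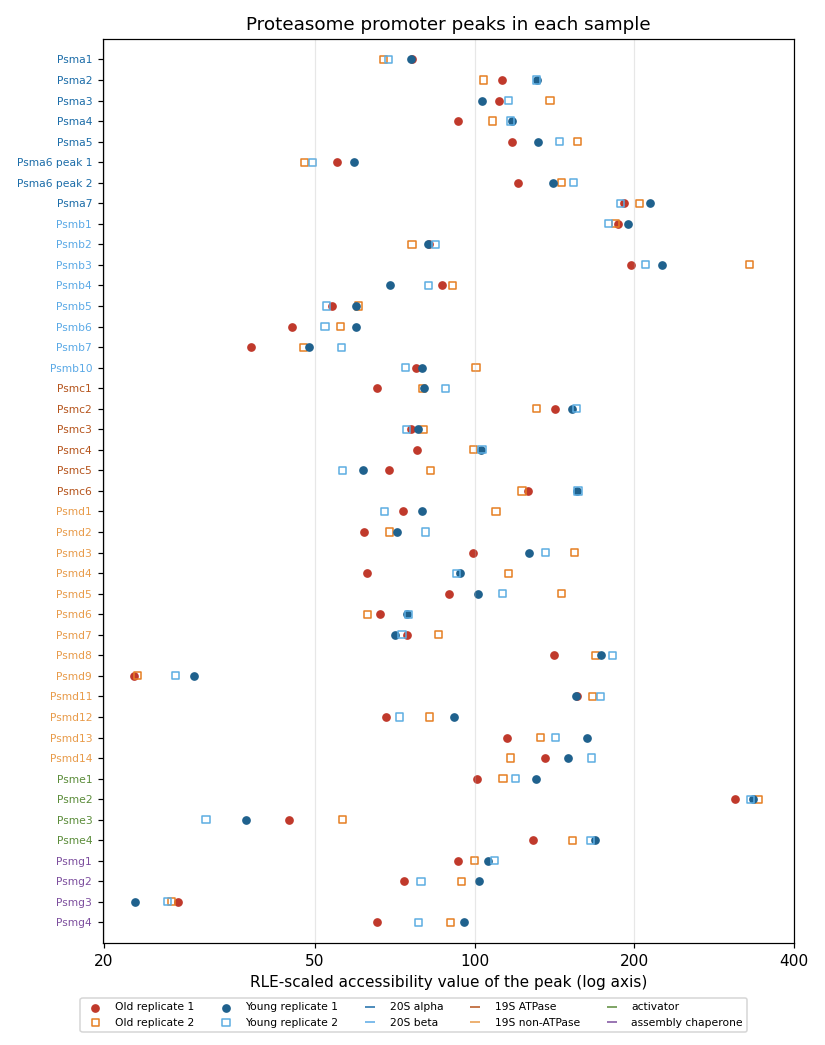
RLE-scaled value of each proteasome promoter peak (log axis) in the 4 samples, old in red and orange, young in blue, with gene names coloured by role. Values of 1 peak lie close together compared with the range from Psmd9 and Psmg3 to Psme2, and the groups overlapped in 22 of 43 peaks.

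The shift depended on which old sample was used. Against young replicates 1 and 2, old replicate 1 had a median over the 43 peaks of -0.18 and -0.18 (all promoter peaks -0.10 and -0.054), and old replicate 2 had -0.042 and 0.022 (all promoter peaks -0.0048 and 0.055). Each sample enters 2 of the 4 pairs, so the pairs are not independent of each other. Without old replicate 1 the median was -0.0039 and 51.2% of the peaks were lower (promoter peaks 0.027 and 47.0%). Without old replicate 2 it was -0.20 and 74.4% (promoter peaks -0.071 and 62.0%). As deposited, without RLE factors, 42 of 43 peaks had their lowest value in old replicate 1 (97.7%, against 78.5% of promoter peaks). The deposited median was then -0.39, against -0.31 for promoter peaks and -0.27 for all peaks.

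**Figure D4:**
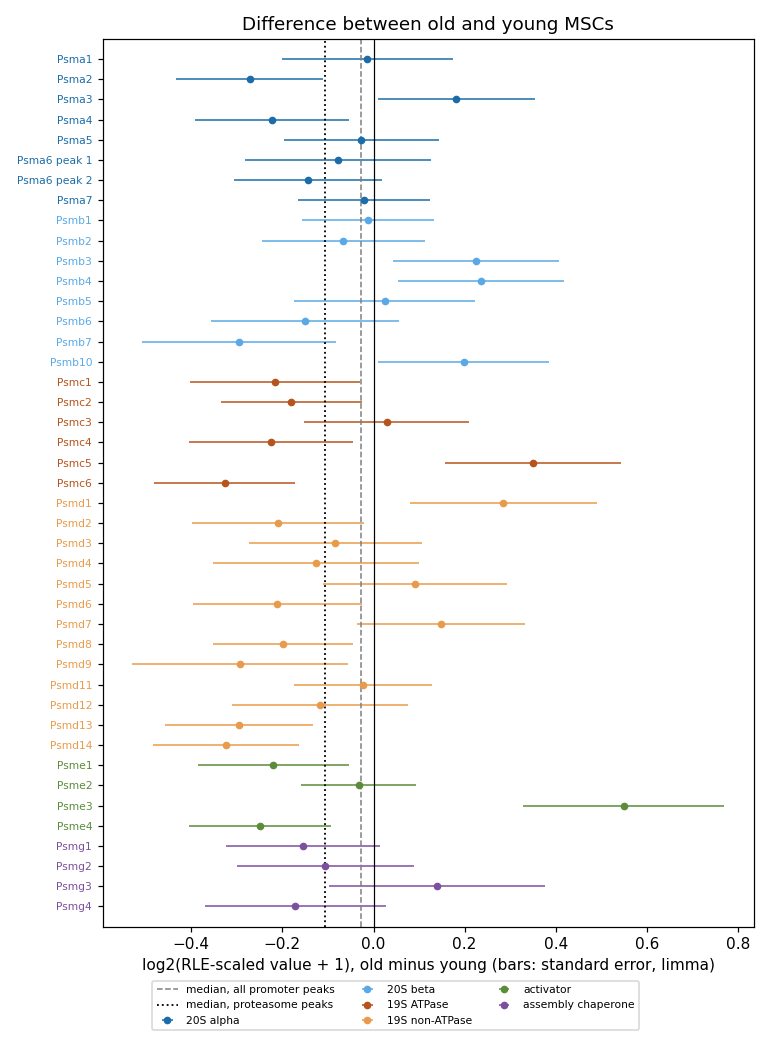
Difference between old and young MSCs on the log2(RLE-scaled value + 1) scale for each proteasome peak, with the limma standard error as bars, coloured by role, and the medians of the proteasome peaks (dotted, -0.11) and of all promoter peaks (dashed, -0.028). Most points lie between -0.33 and 0.25, and Psme3 stands alone at 0.55.

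The 20S core and the 19S regulator were then described in turn. In the core, 11 of 16 peaks had a lower old mean and 5 a higher one, with a median of -0.024. The median of the 8 alpha peaks was -0.052 and that of the 8 beta peaks 0.0062. Both old samples lay below both young samples in 3 of the 16 (18.8%, against 25.7% of promoter peaks). The sign of the core median was not stable, since it was 0.014 after quantile normalization and 0.045 after scaling to equal total signal, where all promoter peaks had 0.0024 and 0.040.

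Psma2, an alpha subunit, had the lowest difference of its role. Its values were 113 and 104 in old samples and 131 and 131 in young samples, a difference of -0.27 ± 0.16 (SE; limma adjusted p = 0.42), and the groups did not overlap. Psma3, another alpha subunit, had the highest, with 111 and 139 in old samples and 103 and 116 in young samples (0.18 ± 0.17, limma adjusted p = 0.64). Here the groups overlapped. The upstream Psma6 peak gave 55.1 and 47.9 in old samples and 59.4 and 49.6 in young samples, which also overlapped (-0.078 ± 0.21). Besides Psma2, only Psma4 among the alpha peaks had both old samples (92.9 and 108) below both young samples (117 and 117), by -0.22 ± 0.17. The remaining alpha peaks, those of Psma1, Psma5, Psma7 and the second of Psma6, overlapped, with differences from -0.14 to -0.013.

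Psmb7, the beta subunit with the trypsin-like site, had values of 37.9 and 47.6 in old samples and 48.8 and 56.1 in young samples. Its difference was -0.29 ± 0.21 (limma adjusted p = 0.52), and the higher old sample came close to the lower young one. Psmb4, a structural beta subunit, went the other way, with 86.9 and 90.9 in old samples and 69.3 and 81.9 in young samples (0.24 ± 0.18, limma adjusted p = 0.56). For Psmb5 the old values were 53.8 and 60.4 and the young values 59.7 and 52.5. Psmb1 had 186 and 184 in old samples and 195 and 179 in young samples. Both old values of Psmb1 lay between the young ones, and for Psmb5 the groups overlapped too. Psmb10, the inducible counterpart of Psmb7, had 77.5 and 101 in old samples and 79.6 and 74.2 in young samples, and it was high in old replicate 2 only. Psmb6, with the caspase-like site and a TGACNNNGC match next to its start, had 45.2 and 55.8 in old samples and 59.7 and 52.2 in young samples, which overlapped (-0.15 ± 0.21).

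In the 19S regulator, 14 of 19 peaks had a lower old mean and 5 a higher one, with a median of -0.18. Both old samples lay below both young samples in 10 of the 19 (52.6%, against 25.7% of promoter peaks), and above in 2 (10.5%, against 15.7%). The 6 ATPases had a median of -0.20 and the 13 non-ATPases -0.13. The median of the regulator kept its sign under each scaling, with -0.13 after quantile normalization, -0.11 with equal total signal and -0.24 once GC content and width had been regressed out (where all promoter peaks had -0.10), but it was -0.054 without old replicate 1. In that fit the ATPase median was -0.065, and the non-ATPase median changed sign to 0.016. The difference between core and regulator was not tested.

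Psmc6, an ATPase of the 19S base, had 126 and 123 in old samples and 156 and 157 in young samples, with a difference of -0.33 ± 0.15 (limma adjusted p = 0.30). The old values were close to each other and below the young values. Psmc6, Psmd12 and Psme4 are the 3 genes whose windows held both TGACNNNGC and CCGGAAG, and the groups overlapped for Psmd12. Psmc5, another ATPase, had the opposite pattern, with 68.8 and 82.6 in old samples and 61.7 and 56.4 in young samples (0.35 ± 0.19, limma adjusted p = 0.38). For Psmc3 all 4 values lay between 74.5 and 80.2. The ATPases thus ranged from below to above the young level, and 4 of 6 had both old samples below both young samples (66.7%, against 25.7% of promoter peaks). Beside Psmc6 these were Psmc1 (-0.22), Psmc2 (-0.18) and Psmc4 (-0.23), each with a standard error between 0.15 and 0.19.

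Psmd14, the deubiquitinating enzyme of the lid, gave 136 and 117 in old samples and 150 and 166 in young samples (-0.32 ± 0.16, limma adjusted p = 0.32), without overlap. Psmd13 gave 115 and 133 in old samples and 163 and 142 in young samples (-0.30 ± 0.16, limma adjusted p = 0.38), also without overlap, in a peak shared with Sirt3. Psmd9 had the lowest values of the regulator, 22.8 and 23.2 in old samples and 29.5 and 27.3 in young samples (-0.29 ± 0.24, limma adjusted p = 0.57). Psmd1, a large scaffold subunit of the base, had the highest difference of the non-ATPases, at 0.28 ± 0.21. Its values of 73.2 and 110 in old samples and 79.6 and 67.7 in young samples show that only old replicate 2 was high. Psmd2, Psmd6 and Psmd8 also had both old samples below both young samples, by -0.21, -0.21 and -0.20. Psmd7, the partner of Psmd14 in the lid, had both above (0.15 ± 0.18). The groups overlapped for Psmd3, Psmd4, Psmd5, Psmd11 and Psmd12. Psmd4, a ubiquitin receptor, had 62.8 and 116 in old samples, on either side of 93.9 and 92.6 in young samples.

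Among the activators, Psme3, the subunit of the nuclear activator, had the largest difference of the 43 peaks. Its values were 44.8 and 56.4 in old samples and 37.2 and 31.2 in young samples, a difference of 0.55 ± 0.22 on the log2 scale (limma adjusted p = 0.22). The groups did not overlap, and the peak lies on chromosome 11, where old replicate 2 stood apart. Without old replicate 2 the difference was 0.39. Psme4, a large activator of a single chain, had 129 and 153 in old samples and 169 and 166 in young samples (-0.25 ± 0.16, limma adjusted p = 0.45). Psme4 lies on the same chromosome and moved in the other direction, without overlap. Psme1, the partner of Psme2, had 101 and 113 in old samples and 130 and 119 in young samples (-0.22 ± 0.17), while Psme2 differed by -0.033 ± 0.13. Among the chaperones, Psmg3 had 27.5 and 26.8 in old samples and 22.9 and 26.4 in young samples (0.14 ± 0.24), and Psmg4 had 65.4 and 90.0 against 95.5 and 78.4 (-0.17 ± 0.20). The differences of Psme2, Psmg3 and Psmg4 were smaller than their standard errors. Psmg1 and Psmg2, which act together at an early step of alpha ring assembly, differed by -0.16 ± 0.17 and -0.11 ± 0.19.

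Chromosome 11 carries 8 of the 43 peaks (Psme4, Psmb6, Psmd11, Psmb3, Psmd3, Psme3, Psmc5 and Psmd12). In old replicate 2 their median difference from the mean of the young samples was 0.13, against -0.051 for the 35 others, and promoter peaks in general had 0.21 on chromosome 11 against 0.015 elsewhere. In old replicate 1 the medians were -0.20 and -0.21. The plot of each old sample against the young samples shows that the 3 peaks farthest up in old replicate 2 were Psme3 and Psmb3 of chromosome 11, and Psmd1 of another chromosome. The part of the chromosome in these values was not tested. Leaving out the 8, the remaining 35 had a median difference between old and young MSCs of -0.13, and 26 of them were lower (74.3%). All promoter peaks outside chromosome 11 had -0.034 and 55.8%. The 8 on chromosome 11 had -0.054 and 62.5% lower, against 0.050 and 41.4% for all promoter peaks there.

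**Figure D5:**
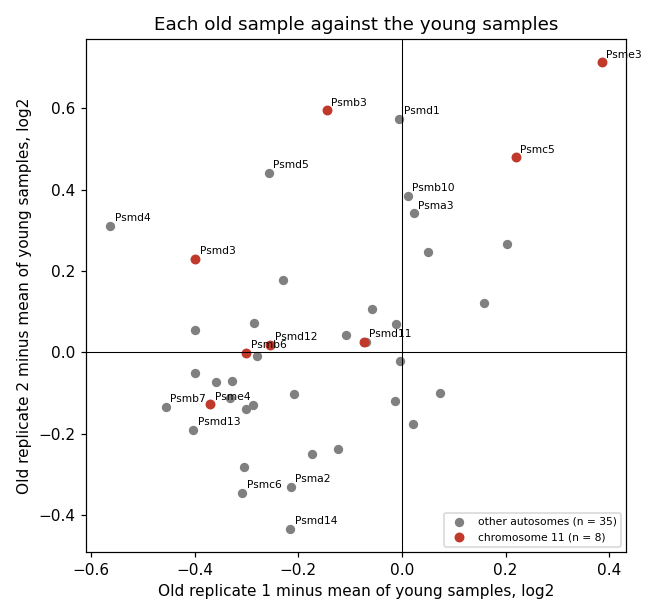
Old replicate 1 (horizontal) and old replicate 2 (vertical) minus the mean of the young samples, in log2(RLE-scaled value + 1), for the 43 proteasome peaks, with the 8 on chromosome 11 in red. Most peaks lie left of 0, above and below the horizontal line, and only Psme3, Psmc5 and a few others lie above 0 in both.

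Leaving out old replicate 1 also changed the calls. The fit with old replicate 2 alone, which assumes that a single old sample varies as the young ones do, called 3 of 43 peaks at an adjusted p of 0.01, against 11.2% of all promoter peaks. They were Psmb3 (0.59, limma adjusted p = 2.34e-06) and Psmd1 (0.57, 0.0051), which were higher, and Psmd14 (-0.44, 0.0096), which was lower. Psmb3 had 197 and 330 in old samples and 226 and 210 in young samples. Both Psmb3 and Psmd1 had an old replicate 1 value near or below the young values. With a single old sample in this fit, the share called is not read as a difference from promoters in general.

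The genes that serve the proteasome or feed it were taken from a list of 31, of which 30 had 36 promoter peaks between them. None was called (lowest limma adjusted p = 0.14), and 4 had an unadjusted p under 0.05 (11.1%, against 9.65% of promoter peaks). These were the second Ngly1 peak (0.99 ± 0.33), the second Vcp peak (-1.04 ± 0.47), and the peaks of Psmd10 (-0.41 ± 0.18) and Ubqln2 (-0.35 ± 0.16) on the X chromosome. Ngly1 encodes the enzyme that removes sugar chains from proteins and Vcp the ATPase that extracts ubiquitinated proteins, while Psmd10 is a chaperone of the 19S base and Ubqln2 a shuttle for ubiquitinated proteins. The second Vcp peak held values of only 0.61 to 3.32. Both Uba1 peaks, also on the X chromosome, had lower old means as well (-0.17 ± 0.20 and -0.13 ± 0.23). The labels give no sex, and its part in the values on the X chromosome was not tested. Of the 36, 23 had a lower and 13 a higher old mean (63.9% lower, against 54.7% of promoter peaks), with a median of -0.061. Nfe2l1, the gene of the proteasome regulator named above, had 333 and 475 in old samples and 343 and 316 in young samples (0.27 ± 0.15, limma adjusted p = 0.38), so that only old replicate 2 was high, on chromosome 11. Nfe2l2, which encodes a related factor of the antioxidant response, differed by 0.075 ± 0.10. Pomp, the maturation factor of the core, had 157 and 148 in old samples and 181 and 175 in young samples (-0.22 ± 0.15, limma adjusted p = 0.49). Uchl5, a deubiquitinating enzyme that docks on the 19S regulator, had 212 and 206 in old samples and 266 and 241 in young samples (-0.28 ± 0.14, limma adjusted p = 0.33). In both Pomp and Uchl5 the groups did not overlap. Pomp, Uchl5 and the 2 Nfe2l genes were picked from the list after their values were seen. The inducible subunits left out of the main set had differences of -0.27 ± 0.19 for Psmb8 and 0.014 ± 0.18 for Psmb9, and the ubiquitin gene Ubb showed -0.14 ± 0.16.

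Finally, peaks that overlap the annotated bodies of these genes, from first to last annotated base, and are not promoter peaks were examined. Starts of transcripts that are not protein-coding were not excluded. There were 27 at 13 genes, 21 of them without an annotated exon of any gene. None was called at 0.01, and 6 had an unadjusted limma p under 0.05 (22.2%, against 17.4% of peaks that are not promoter peaks). Their median difference was 0.025. The lowest adjusted p belonged to a peak in an intron of Psme4 at chr11:30796901-30798000, with values of 24.1 and 19.5 in old samples and 39.1 and 47.5 in young samples. It was lower in old MSCs by a difference of -0.96 ± 0.23 (limma adjusted p = 0.053). A peak in an intron of Psmb7 at chr2:38621001-38622700 had 27.5 and 38.4 in old samples and 13.9 and 19.9 in young samples (0.93 ± 0.27, limma adjusted p = 0.087), opposite in direction to the Psmb7 promoter. Both were separated between the groups, yet above the threshold. They were picked as the body peaks with the lowest adjusted p after the values were seen.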

How the data were processed

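ATAC-seq of 4 mouse MSC samples was analysed. The authors deposited 1 score per peak and sample, with decimal commas, on mm10. The file calls the score RPKM, but all values (100%, tolerance 0.01) were whole multiples of 1 step per sample and were not divided by peak width. The submitters' processing notes list Bowtie2 and Picard; the peak caller and versions are not given in the sources used here. All 117279 nuclear peaks ended within the GRCm38 chromosomes.

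Values were divided by RLE factors, and log2(value + 1) was fitted with limma 3.58.1 (R 4.3.3, lmFit, eBayes with trend and robust moderation), two-sided, over all 117282 peaks, with adjusted p under 0.01 (Benjamini-Hochberg). No count model was used as the main test, although whole counts could be recovered from the steps. A limma-voom fit of these counts served as an alternative. The limma step was tested on simulated data. Start sites came from GENCODE vM21 and promoter windows from RefSeq (GRCm38.p6). No window was found for Psmb1, Psmb2, Psmb7, Psmc3, Psmd3, Psmd7 and Psmg2. Python 3.11.15, pandas 2.3.3, numpy 2.4.6, pysam 0.24.0 and matplotlib 3.10.9 were used.

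Peaks named with values are those past the threshold, those with an unadjusted p under 0.05, and in each role those with the highest and lowest difference and density. Other named genes were chosen after their values were seen. Some marker and list genes are not reported here. The members and lists were chosen with earlier results of these data known. Alternatives were other scalings, pseudocounts of 0.1 and 5, plain moderation, filters, a replicate block, a false discovery rate of 0.05, peaks within 200 bp of a start, 1 peak per gene and leaving out each sample. Regressing out GC content and width, and limma-voom on recovered counts were added after seeing the data.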

Additional observations from a re-analysis of the deposited data

How the results depend on the processing

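No proteasome peak was called under any alternative that kept all 4 samples; leaving out 1 sample gave 0 to 1 lower and 0 to 2 higher calls, all of them without old replicate 1. Over all peaks, calls moved from 36 lower and 30 higher to 1333 and 52 as deposited, 7 and 15 with equal total signal, 11 and 13 with pseudocount 0.1, 7 and 8 above the lower quartile of values, 112 and 73 with the GC and width correction, 95 and 49 with limma-voom on recovered counts, 904 and 412 at a false discovery rate of 0.05, and 0 to 6476 lower and 0 to 3880 higher with 1 sample left out. Calls were 0 and 0 with plain moderation in limma (18137 peaks had an unadjusted p under 0.05) and in a limma fit of promoter peaks only (1483 peaks). The numbers of the samples share no stated handling, and deviations of same-numbered samples correlated with -0.099; a replicate block gave 907 lower and 362 higher calls among all peaks and 0 among the proteasome peaks.

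The median of the proteasome peaks (-0.11) was -0.39 as deposited, -0.038 with equal total signal, -0.18 with the GC and width correction (promoter peaks -0.31, 0.040 and -0.10), and -0.20 to -0.0039 with 1 sample left out. The share lower (72.1%) was 95.3% as deposited, 58.1% after quantile normalization, 55.8% with equal total signal (promoter peaks 86.8%, 49.5% and 42.6%), and 51.2% to 74.4% with 1 sample left out. The density ratio (1.45) was 1.12 undivided by width. Among the alternatives that can move a fold change, 186 of 209 values of the 19 named peaks kept their direction. As deposited, the sign turned for Psmd1 (-0.00038), Psmc3 (-0.26), Psmb4 (-0.051), Psmg3 (-0.14), Psma3 (-0.10) and Psmb5 (-0.26); with the GC and width correction for Psmc3 (-0.027), Psmg3 (-0.019) and Psmb5 (-0.040); after quantile normalization and with equal total signal for Psme2 (0.023 and 0.036) and Psmb1 (0.035 and 0.056). With 1 sample left out, the sign turned within the ranges of Psmc3 (-0.0098 to 0.067), the upstream Psma6 peak (-0.21 to 0.046), Psmg4 (-0.39 to 0.053), Psmb5 (-0.0695 to 0.11), Psme2 (-0.099 to 0.040) and Psmb1 (-0.077 to 0.045). The cause was not tested. With 2 samples per group and a median standard error of 0.18, none of the 43 differences passed the threshold in the main fit. That includes the largest, Psme3 (0.55 ± 0.22, limma adjusted p = 0.22).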
